A study of Homo sapiens with 3 samples.

Results

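The 9 genes described here are NFE2L2, which encodes the transcription factor NRF2, its inhibitor KEAP1, and the NRF2 targets HMOX1, GCLM, GCLC, TXNRD1, SLC7A11, NQO1 and SRXN1. They were selected on the differences in FPKM between these same libraries, before and after correction for the GC content of genes, so those differences are a description of the chosen genes. All 9 were found by Ensembl identifier among the 23379 genes of the deposited tables. Expression was measured by RNA sequencing in DU145, an established human line from a metastasis of a prostate carcinoma. There was 1 library in each of 3 groups: cells given a plasmid that encodes BRAF L597R (L597R), cells made to overexpress unmutated BRAF (WT), and cells serving as negative control (P-Enter). BRAF relays RAS signals to the MEK and ERK kinases, and L597R exchanges a single amino acid of its kinase domain. The labels do not say whether a group was a pool or a clone, or how long after transfection the RNA was taken.

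Under normal conditions KEAP1 holds NRF2 in the cytoplasm and hands it to a CUL3 ubiquitin ligase for destruction. Oxidants and electrophiles modify KEAP1, NRF2 then accumulates in the nucleus, pairs with a small MAF protein and binds antioxidant response elements in DNA, where the repressor BACH1 can compete with it. Its targets make glutathione, reduce thioredoxin and peroxiredoxins, detoxify quinones and degrade haem. Control of NRF2 is largely at the level of the protein, which mRNA values do not show.

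Values were FPKM, reads per kilobase of gene and per 1000000 counted reads, as deposited. Whole reads worked out from them gave totals of 16603676 counted reads in L597R, 15665132 in WT and 13294004 in P-Enter. With 1 library per group there is no replicate check and no p-value. Intervals in parentheses are exact Clopper-Pearson 95% intervals of a ratio of reads per counted read between 2 libraries. They cover counting error only, and reads without molecular identifiers are not independent molecules. BRAF itself was at 9.59 FPKM in L597R and 4.41 FPKM in WT, against 1.65 FPKM in P-Enter, so construct and BRAF level cannot be told apart. Of the epithelial markers, KRT7 and KRT18 were at 26.9 and 37.6 FPKM in L597R, 27.2 and 36.6 FPKM in WT, and 28.9 and 34.3 FPKM in P-Enter. KRT8, KRT19 and CDH1 were below 1 FPKM in every library, and CDH1 had 0 reads in L597R, 0 in WT and 1 in P-Enter, and EPCAM, KRT5 and TP63 were not analysed here, so the line rests on its label. Of the leukocyte, endothelial, fibroblast and muscle markers, 6 were in the tables and each was below 1 FPKM in all 3 libraries.

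The antioxidant response element has the core TGACNNNGC, in which N is any base. RefSeq promoter windows (GRCh38.p14), which run from 250 bases before to 50 bases after a transcript start, were at hand for 7 of the 9 genes, 10 windows in all. Both strands were searched, and the core was found in 4 windows, those of GCLM, TXNRD1 (both starts) and KEAP1 (1 of 2 starts). It was present in 13.3% of the 35116 windows available for all genes. No match overlapped the AP-1 element TGACTCA, which can lie within an antioxidant response element. The 4 windows are shown 5′ to 3′ along the transcript, since they hold the letters of the core. HMOX1 and SLC7A11 had no window to search. Capitals mark the core or its reverse complement. A match is only a run of letters and no evidence of binding, and for NFE2L2, GCLC, NQO1 and SRXN1 a missing match says only that the letters are not in these windows.
GCLM, chr1:93909381-93909680, minus strand: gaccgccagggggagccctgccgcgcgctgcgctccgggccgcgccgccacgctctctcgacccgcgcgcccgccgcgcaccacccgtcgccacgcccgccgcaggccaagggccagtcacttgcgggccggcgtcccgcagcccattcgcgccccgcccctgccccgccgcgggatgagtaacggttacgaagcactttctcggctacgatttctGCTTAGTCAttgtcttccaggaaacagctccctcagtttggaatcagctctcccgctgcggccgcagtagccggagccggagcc
TXNRD1, chr12:104215529-104215828, plus strand: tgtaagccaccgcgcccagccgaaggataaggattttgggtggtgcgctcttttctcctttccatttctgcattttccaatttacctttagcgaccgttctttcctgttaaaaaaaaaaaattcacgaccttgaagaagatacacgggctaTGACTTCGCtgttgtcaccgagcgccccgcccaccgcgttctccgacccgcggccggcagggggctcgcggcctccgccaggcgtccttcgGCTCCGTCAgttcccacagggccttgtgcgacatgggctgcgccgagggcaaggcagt
TXNRD1, chr12:104286782-104287081, plus strand: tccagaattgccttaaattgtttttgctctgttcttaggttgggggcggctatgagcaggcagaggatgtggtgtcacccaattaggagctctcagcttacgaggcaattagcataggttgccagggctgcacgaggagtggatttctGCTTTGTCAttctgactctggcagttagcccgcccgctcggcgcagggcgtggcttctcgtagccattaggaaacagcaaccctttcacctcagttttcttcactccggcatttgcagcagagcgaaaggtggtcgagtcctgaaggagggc
KEAP1, chr19:10502722-10503021, minus strand: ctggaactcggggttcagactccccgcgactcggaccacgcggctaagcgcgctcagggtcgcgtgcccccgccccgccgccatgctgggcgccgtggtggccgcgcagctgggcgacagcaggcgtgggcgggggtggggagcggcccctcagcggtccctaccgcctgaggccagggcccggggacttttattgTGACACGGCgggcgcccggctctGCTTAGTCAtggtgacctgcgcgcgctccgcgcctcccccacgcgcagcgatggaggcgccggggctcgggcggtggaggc
The GCLM match and 1 of the 2 KEAP1 matches read TGACTAAGC on the strand opposite to the gene. The GCLM match begins 34 bases and the KEAP1 match 31 bases before the start.

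Several NRF2 genes were among the most abundant mRNAs of these cells in every library. On the FPKM scale, which allows for gene length, NQO1 stood above 99.2% of the 10639 genes with a mean of at least 1 FPKM in L597R, 99.1% in WT and 99.1% in P-Enter. TXNRD1 and HMOX1 followed, each above 98.4% or more of those genes in every library. KEAP1, GCLM, SLC7A11 and NFE2L2 came next in L597R. In WT SLC7A11 stood just above GCLM, and in P-Enter the order was as in L597R. GCLC was the lowest of the 8 genes that reached a mean of 1 FPKM, and SRXN1 was below that filter. In bulk RNA, a change in the share of cells that express a gene and a change in its mRNA per cell cannot be told apart.

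**Figure D1:**
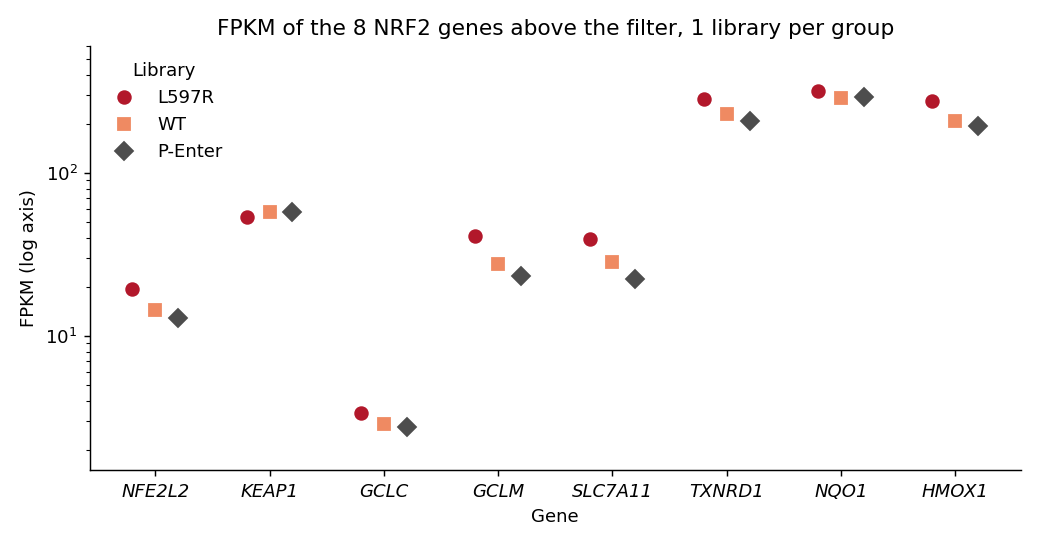
Level in FPKM (log axis) of the 8 genes with a mean of at least 1 FPKM, with 1 point for each of the libraries L597R, WT and P-Enter. NQO1, TXNRD1 and HMOX1 sit near or above 200 FPKM in all 3 libraries, and 6 of the 8 genes step down through L597R, WT and P-Enter; SRXN1 is not drawn.

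Cells with the mutant were first set against the negative control. NFE2L2 and 4 of its targets, GCLM, SLC7A11, HMOX1 and TXNRD1, were higher in L597R by 1.37 to 1.76 times in reads. GCLC and NQO1 were higher by less, and KEAP1 was slightly lower. None of the 8 genes differed by 1 or more on the log2(FPKM + 1) scale, a size that 0.301% of the 10639 genes reached as higher and 0.508% as lower in L597R. For 5 of the 8 the whole interval of the read ratio lay above 1.2, against 7.75% of 10357 genes with reads. For none did it lie below the inverse of 1.2, against 1.54%. Past 1 the interval lay above for 7 of the 8 (25.5% of genes) and below for KEAP1 (24.0%). Past 1.5 it lay above for GCLM and SLC7A11 (0.154% of genes) and below for none (0.348%). GCLM and SLC7A11 were also at least 1.5-fold higher on the log2(FPKM + 1) scale, as were 1.38% of genes.

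The regulators differed in opposite directions in the counted reads. NFE2L2 (chromosome 2 from 177227595 to 177392697, minus strand, GRCh38) was at 19.5 FPKM in L597R and 14.5 FPKM in WT, against 12.9 FPKM in P-Enter. L597R was the highest of the libraries and WT lay nearer to P-Enter. The read ratio of L597R to P-Enter was 1.51 (1.39 to 1.63), from 1834 reads in L597R, 1287 in WT and 974 in P-Enter. Other annotated genes cover 20.9% of its exonic bases, mostly AC019080.1 on the same strand, which was at 0.218 FPKM in L597R, 0.374 in WT and 0.283 in P-Enter. KEAP1, the adaptor that presents NRF2 to the ligase (chromosome 19 from 10486120 to 10503741, minus strand), was at 53.3 FPKM in L597R and 57.2 FPKM in WT, against 57.7 FPKM in P-Enter. Its read ratio of L597R to P-Enter was 0.925 (0.878 to 0.973). The FPKM of NFE2L2 divided by that of KEAP1 was 0.365 in L597R and 0.253 in WT, against 0.224 in P-Enter. That quotient was 1.63 times as high in L597R as in P-Enter (95% counting interval 1.49 to 1.79). It was not corrected for GC content, which differs between the 2 genes. The corrected ratios of L597R to P-Enter were 1.44 for NFE2L2 and 1.04 for KEAP1, so part of the quotient goes with the GC trend.

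Among the glutathione genes GCLM stood out. It encodes the modifier subunit of glutamate-cysteine ligase, the first and rate-limiting enzyme of glutathione synthesis, and lies on chromosome 1 from 93885205 to 93909456 (minus strand). GCLM was at 40.9 FPKM in L597R and 27.8 FPKM in WT, against 23.3 FPKM in P-Enter, from 3688 reads in L597R, 2360 in WT and 1679 in P-Enter. Again L597R was highest and WT lay between. The read ratio of L597R to P-Enter was 1.76 (1.66 to 1.86), and only 3 of 9358 protein-coding genes had a higher log2 difference. GCLC, the catalytic subunit of the same enzyme (chromosome 6 from 53497341 to 53616970, minus strand), was at 3.38 FPKM in L597R and 2.88 FPKM in WT, against 2.75 FPKM in P-Enter. Its ratio was 1.23 (1.07 to 1.42). GCLM exceeded GCLC 12.1-fold in FPKM in L597R and 9.64-fold in WT, against 8.47-fold in P-Enter. The quotient was 1.43 times as high in L597R as in P-Enter (1.23 to 1.67). It too was not corrected for GC content, and GCLM has the lower GC content. The corrected ratios of L597R to P-Enter were 1.43 for GCLM and 1.17 for GCLC, so part of the quotient goes with the GC trend.

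SLC7A11 encodes the light chain of the cystine importer that feeds glutathione synthesis (chromosome 4 from 138164097 to 138242349, minus strand). It was at 39.0 FPKM in L597R and 28.4 FPKM in WT, against 22.3 FPKM in P-Enter. The libraries ran in the same order as for GCLM. The read ratio of L597R to P-Enter was 1.75 (1.67 to 1.83), and 5 protein-coding genes had a higher log2 difference. SLC7A11 is also a target of ATF4, the factor of the integrated stress response, so its level can depend on more than NRF2. The part of either factor in these values was not tested.

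TXNRD1, the cytosolic reductase that regenerates thioredoxin with NADPH (chromosome 12 from 104215779 to 104350305, plus strand), was at 284 FPKM in L597R and 231 FPKM in WT, against 207 FPKM in P-Enter. It rested on 31629 reads in L597R, 24275 in WT and 18421 in P-Enter, the most of the 9 genes. Its read ratio of L597R to P-Enter was 1.37 (1.35 to 1.40). HMOX1, the oxygenase that splits haem into biliverdin, iron and carbon monoxide (chromosome 22 from 35380361 to 35394214, plus strand), was at 277 FPKM in L597R and 209 FPKM in WT, against 193 FPKM in P-Enter. Its ratio was 1.44 (1.40 to 1.49). In both genes L597R was highest and WT lay closer to P-Enter. NQO1, the quinone reductase (chromosome 16 from 69706996 to 69726951, minus strand), was at 316 FPKM in L597R and 289 FPKM in WT, against 291 FPKM in P-Enter. WT and P-Enter lay level with L597R above both, and the ratio was 1.09 (1.06 to 1.11). Before correction for GC content, HMOX1 against NQO1 was 1.33 times as high in FPKM in L597R as in P-Enter (1.27 to 1.38). The targets therefore did not share a single fold difference.

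SRXN1, the sulfiredoxin that repairs overoxidised peroxiredoxins (chromosome 20 from 646615 to 653370, minus strand), could not be compared. It was at 0.0715 FPKM in L597R and 0.101 FPKM in WT, and was listed at 0 in P-Enter, from 3, 4 and 0 reads in that order. A count of 0 in P-Enter allows up to 0.226 CPM. Exons of a further annotated gene on the same strand, AL121758.1, cover 85.0% of the exonic bases of SRXN1. That gene was at 0.0666 FPKM in L597R, 0.165 in WT and 0.166 in P-Enter. What the counting did with reads in the shared bases is not given in the sources used here, and its part in the low SRXN1 values was not tested.

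The differences between libraries followed the GC content of genes, which differs widely among these 9. Across 9358 protein-coding genes the log2 difference of L597R from P-Enter correlated with exonic GC content at a Spearman rho of -0.69 (across genes, which are not independent replicates and share the same libraries). A cubic trend lay at 0.20 for genes of 40% GC, at -0.06 for 50% and at -0.15 for 60%, and removed 47.5% of the variance. SLC7A11 at 35.4% and GCLM at 38.6% GC sat where the trend was raised. NFE2L2, GCLC, NQO1 and TXNRD1 lay between 44.5% and 46.3%, where it was close to 0. HMOX1 at 58.0% and KEAP1 at 62.7% sat where it was lowered.

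**Figure D2:**
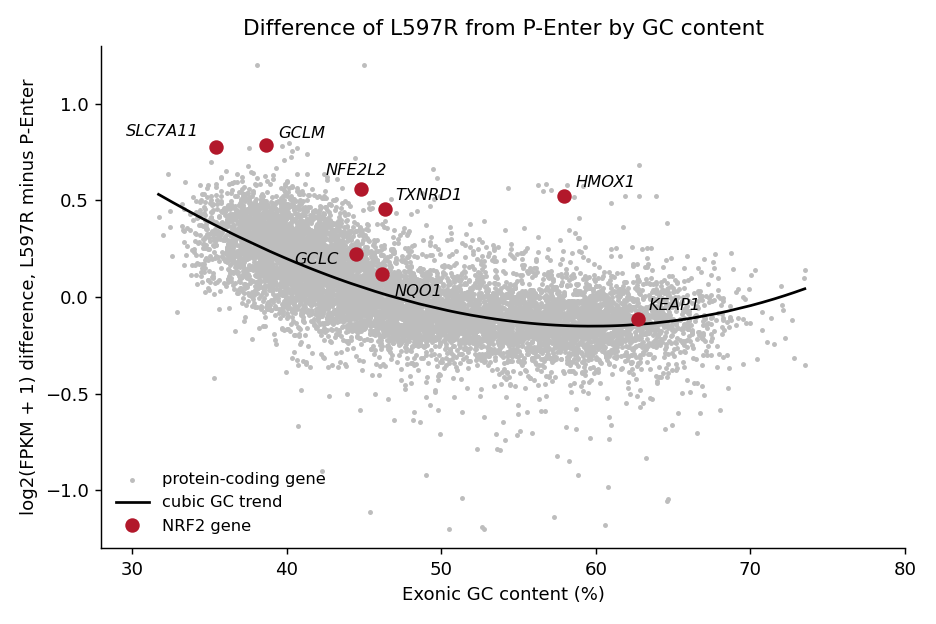
Difference of log2(FPKM + 1), L597R minus P-Enter, against exonic GC content in percent for 9358 protein-coding genes (grey), with the cubic trend (line) and the 8 NRF2 genes (red); 4 genes beyond 1.2 in either direction are drawn at that limit. HMOX1 stands above nearly all genes of its GC content, GCLM and SLC7A11 stand at the upper edge of the AT-rich genes, and KEAP1 lies close to the line.

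Correction for GC content changed the order of the genes and left the same 5 above 1.2. After division by the trend, the whole interval of the read ratio of L597R to P-Enter lay above 1.2 for NFE2L2, HMOX1, GCLM, SLC7A11 and TXNRD1, against 0.993% of 9162 protein-coding genes. Before the correction the share of protein-coding genes was 8.56%. None of the 8 lay below the inverse of 1.2, as 1.12% of protein-coding genes did after and 1.42% before the correction. On the corrected log2 scale the middle 95% of protein-coding genes ran from -0.30 to 0.32, and those 5 genes lay above it.

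HMOX1 had the largest corrected difference of the 8, 0.67 against 0.52 before, and 12 of 9358 genes lay higher. Its corrected read ratio was 1.63 (1.58 to 1.68). GCLM was next at 0.54 against 0.79 before, with a corrected ratio of 1.43 (1.35 to 1.52). NFE2L2 was little altered, at 0.50 against 0.56, with a corrected ratio of 1.44 (1.33 to 1.56). TXNRD1 likewise stayed at 0.44 against 0.46. Its corrected ratio was 1.36 (1.33 to 1.38).

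SLC7A11, the gene with the lowest GC content, lost the most. Its log2 difference was 0.41 after and 0.78 before the correction, and its corrected ratio was 1.28 (1.22 to 1.34). GCLC had a corrected ratio of 1.17 (1.01 to 1.35) and NQO1 of 1.07 (1.04 to 1.09). KEAP1 changed sides, with a corrected difference of 0.03 against -0.11 before and a corrected ratio of 1.04 (0.990 to 1.1). Its direction against P-Enter therefore depends on the correction. Over the 8 genes the median difference was 0.43 after and 0.49 before, beside 0.00 for all protein-coding genes after and -0.01 for all 10639 genes before.

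**Figure D3:**
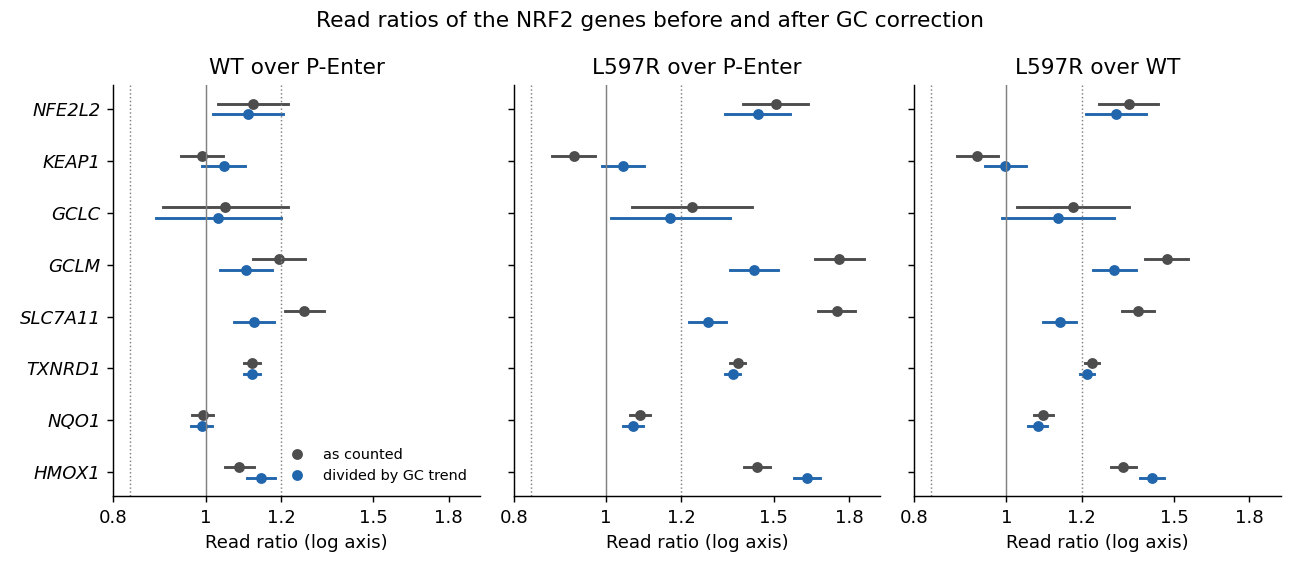
Ratio of reads per counted read (log axis) for the 8 genes in the 3 comparisons, as counted (grey) and divided by the GC trend (blue), with exact 95% counting intervals; dotted lines mark 1.2 and its inverse. In L597R over P-Enter, GCLM and SLC7A11 move left and HMOX1 moves right with the correction, and 5 genes remain wholly past 1.2.

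Overexpression of unmutated BRAF went with smaller differences from the negative control. None differed by 1 on the log2 scale, which 0.376% of genes did as higher and 0.602% as lower in WT. SLC7A11 had a read ratio of 1.27 (1.21 to 1.33), wholly above 1.2 as for 0.512% of genes with reads, and of 1.12 (1.07 to 1.18) after the correction. GCLM had 1.19 (1.12 to 1.27), TXNRD1 1.12 (1.1 to 1.14), NFE2L2 1.12 (1.03 to 1.22) and HMOX1 1.09 (1.05 to 1.12). These 5 genes had intervals above 1, as 14.0% of genes did, and none of the 8 lay below 1, as 12.1% did. None lay below the inverse of 1.2 (0.724% of genes), above 1.5 (0.0676%) or below its inverse (0.261%).

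After the correction no gene of the list lay wholly above 1.2 in WT, as 0.229% of protein-coding genes did, and none below its inverse, as 0.524% did. GCLM then had a ratio of 1.1 (1.04 to 1.17), TXNRD1 of 1.12 (1.1 to 1.14) and HMOX1 of 1.14 (1.1 to 1.18). NFE2L2 had 1.11 (1.02 to 1.2). GCLC, NQO1 and KEAP1 had intervals that held 1 before and after the correction. The corrected ratio of GCLC was 1.03 (0.887 to 1.2), against 1.05 (0.901 to 1.22) as counted. That of NQO1 was 0.991 (0.966 to 1.02), against 0.993 (0.968 to 1.02) as counted. KEAP1 had 1.04 (0.992 to 1.1) corrected and 0.991 (0.942 to 1.04) as counted, so its side of 1 depends on the correction here too. The median over the 8 genes was 0.14 before and 0.15 after the correction, beside 0.00 for all genes.

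Between mutant and unmutated BRAF, BRAF itself was also higher in L597R. None of the 8 genes differed by 1 on the log2 scale, which 0.348% of genes did as higher and 0.376% as lower in L597R. The intervals of NFE2L2, HMOX1, GCLM, SLC7A11 and TXNRD1 again lay wholly above 1.2, as for 1.73% of genes with reads, and none below the inverse, as for 0.879%. Past 1 the interval lay above for 7 of the 8 (22.0% of genes) and below for KEAP1 (16.4%), and past 1.5 for none in either direction (0.174% above and 0.193% below). GCLM had a ratio of 1.47 (1.40 to 1.55), SLC7A11 1.38 (1.32 to 1.43), NFE2L2 1.34 (1.25 to 1.44), HMOX1 1.33 (1.29 to 1.37) and TXNRD1 1.23 (1.21 to 1.25). After the correction HMOX1, NFE2L2 and GCLM remained, against 0.568% of protein-coding genes above 1.2 and 0.677% below its inverse, where none of the 8 lay. Their corrected ratios were 1.42 (1.38 to 1.47) for HMOX1, 1.30 (1.21 to 1.40) for NFE2L2 and 1.30 (1.23 to 1.37) for GCLM. TXNRD1 had 1.22 (1.2 to 1.24) and SLC7A11 1.14 (1.09 to 1.18). The median log2 difference over the 8 genes was 0.25 after and 0.35 before the correction, beside 0.00 for all protein-coding genes after and 0.01 for all genes before.

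KEAP1 was lower in L597R than in WT as counted, 0.933 (0.888 to 0.980), and level after the correction, 0.998 (0.950 to 1.05). The 3 libraries ran L597R, WT, P-Enter from high to low for 6 of the 8 genes, against 28.8% of all genes, and the other way for KEAP1, against 26.9%. NQO1 did not follow an order. These comparisons share libraries, so they are not independent of each other.

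Further genes that NRF2 is known to control were taken from a list. Of its 34 NRF2 targets outside the 9 genes, 31 were in the tables and 24 had a mean of at least 1 FPKM. In L597R 15 of them were higher (48.5% of all 10639 genes were) and 9 lower than in P-Enter (median log2 difference 0.02). With the correction 20 were higher and 4 lower (median 0.12, beside -0.002 for all protein-coding genes). Among those lower were BLVRA, GSS and GSR, chosen after their values were seen. BLVRA had a ratio of L597R to P-Enter of 0.893 (0.753 to 1.06) as counted and 0.904 (0.762 to 1.07) corrected. GSS had 0.917 (0.873 to 0.963) as counted and 0.985 (0.937 to 1.03) corrected. GSR had 0.964 (0.891 to 1.04) as counted and 0.992 (0.917 to 1.07) corrected. OSGIN1, an oxidative stress response gene named for growth inhibition, was the one of the 24 whose interval lay above 1.2 as counted, where 7.75% of all genes lay. After the correction OSGIN1 and FTL did, against 0.993% of protein-coding genes. OSGIN1 was at 13.9 FPKM in L597R and 10.5 FPKM in WT, against 8.99 FPKM in P-Enter. Its read ratio of L597R to P-Enter was 1.54 (1.40 to 1.70), and 1.75 (1.59 to 1.92) after the correction, with 5 protein-coding genes higher on the corrected log2 scale.

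The ferritin chains, which store the iron that HMOX1 sets free, are NRF2 targets too and were picked out after their values were seen. FTL was at 7065 FPKM in L597R and 6329 FPKM in WT, against 6003 FPKM in P-Enter. Its ratio was 1.18 (1.17 to 1.19) as counted and 1.32 (1.31 to 1.33) corrected. FTH1 was at 131 FPKM in L597R and 123 FPKM in WT, against 109 FPKM in P-Enter. Its ratio was 1.2 (1.15 to 1.26) as counted and 1.26 (1.2 to 1.32) corrected. Both have many near-identical pseudogene copies, so their counts are uncertain.

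Enzymes of the pentose phosphate pathway, which supplies NADPH to TXNRD1 and NQO1, were also chosen after their values were seen. PGD, a dehydrogenase of the pathway, had a ratio of L597R to P-Enter of 0.947 (0.907 to 0.990) as counted and 1.05 (1.01 to 1.1) corrected. TKT had 0.997 (0.971 to 1.02) as counted and 1.12 (1.09 to 1.15) corrected, and TALDO1 had 1.01 (0.971 to 1.05) as counted and 1.12 (1.07 to 1.16) corrected. The peroxiredoxin PRDX1 had 0.961 (0.935 to 0.987) as counted and 1.05 (1.02 to 1.08) corrected, on the other side of 1. Thioredoxin itself, TXN, had 1.21 (1.17 to 1.25) as counted and 1.06 (1.03 to 1.1) after the correction.

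Partners and regulators of NRF2 were mostly near the middle. Of 15 listed, 14 were measured, 7 higher (48.5% of all genes were) and 7 lower in L597R than in P-Enter. Their median difference was 0.00 before and 0.05 after the correction. BACH1, the repressor that competes for antioxidant response elements, was at 5.56 FPKM in L597R and 4.60 FPKM in WT, against 3.43 FPKM in P-Enter. L597R was highest and P-Enter lowest. Its read ratio of L597R to P-Enter was 1.62 (1.42 to 1.85) as counted and 1.38 (1.21 to 1.57) corrected. CUL3, the scaffold of the ligase that removes NRF2, was at 8.24 FPKM in L597R and 7.05 FPKM in WT, against 6.26 FPKM in P-Enter. Its ratio was 1.32 (1.22 to 1.43) as counted but 1.02 (0.937 to 1.1) corrected, at a GC content of 36.9%. The small MAF partner MAFG had a ratio of 1.03 (0.955 to 1.11) as counted and 1.16 (1.08 to 1.25) corrected. MAFK, of the same family, had 0.850 (0.760 to 0.951) as counted and 0.950 (0.849 to 1.06) corrected.

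Antioxidant enzymes that are not classic NRF2 targets, such as the superoxide dismutase SOD1, catalase and several peroxiredoxins, showed no raised median. Of 21 listed, 17 had a mean of at least 1 FPKM. Among those, 6 were higher (48.5% of all genes were) and 11 lower in L597R than in P-Enter (median -0.09). After the correction 9 were higher and 8 lower (median 0.00, beside -0.002 for all protein-coding genes). No interval passed 1.2 in either direction before or after it. Before it, 7.75% of genes with reads lay above 1.2 and 1.54% below its inverse. After it, 0.993% of protein-coding genes lay above and 1.12% below. SOD1 had a ratio of 0.941 (0.895 to 0.990) as counted and 1.04 (0.992 to 1.1) corrected, and CAT of 0.968 (0.881 to 1.06) as counted and 0.898 (0.817 to 0.988) corrected. For ATF4 and its targets, which share SLC7A11 with NRF2, 12 of 14 listed genes were measured. Of these 8 were higher (48.5% of all genes were) and 4 lower in L597R than in P-Enter (median 0.10). With the correction 9 were higher and 3 lower (median 0.16, beside -0.002 for all protein-coding genes). DDIT3, the stress factor CHOP, passed 1.2 only after the correction, at 1.6 (1.21 to 2.13) against 1.55 (1.17 to 2.06) as counted. ATF4 had a ratio of 0.899 (0.864 to 0.936) as counted and 1.01 (0.975 to 1.06) corrected. SLC3A2, the heavy chain that pairs with SLC7A11, had 1.07 (1.04 to 1.11) as counted and 1.18 (1.14 to 1.22) corrected.

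**Figure D4:**
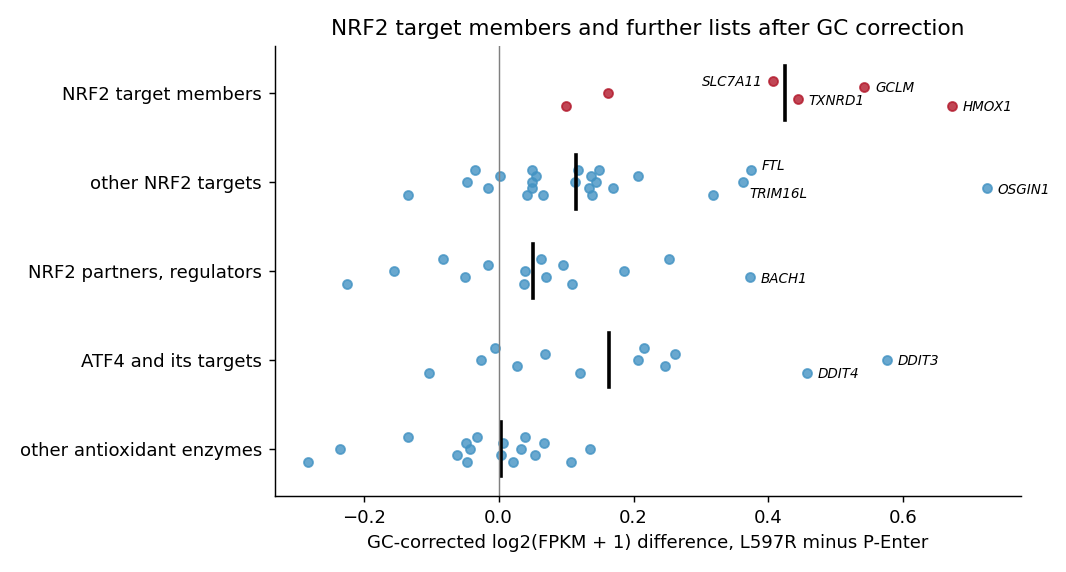
GC-corrected difference of log2(FPKM + 1), L597R minus P-Enter, with 1 point per gene of at least 1 FPKM in each list; black bars are list medians, and genes at 0.35 or beyond are named. OSGIN1 and HMOX1 lie furthest to the right, and the other antioxidant enzymes centre on 0.

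Outside the 9 members, the 5 protein-coding genes most like GCLM in corrected differences from P-Enter were UPF3B, WBP4, DDIT3, CALD1 and NAV3. The differences compared were those of WT and of L597R. The member NFE2L2 lay nearer to GCLM than any of them, at 0.14 in WT and 0.50 in L597R, against 0.15 and 0.54 for GCLM. The distance, taken over those 2 differences among 6158 candidate genes of at least 5 FPKM, ran from 0.059 to 0.091 on the log2 scale. Their corrected differences of L597R from P-Enter were 0.51 for UPF3B, 0.50 for WBP4, 0.58 for DDIT3, 0.46 for CALD1 and 0.51 for NAV3, against 0.54 for GCLM. Likeness over 3 libraries is a description of these values.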

How the data were processed

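Libraries came from Trizol-extracted RNA and a stranded mRNA kit, per the labels' protocols. Trimmomatic, HISAT2, Cufflinks and HTSeq were used on hg38/GRCh38, per the submitters' processing notes. Versions, annotation release and strand setting are not given in the sources used here. FPKM values for each Ensembl gene are what the authors deposited, per the file headers. Without the strand setting, reads of overlapping or antisense genes cannot be told apart. Besides NFE2L2 and SRXN1, exons of other annotated genes cover 17.7% of the exonic bases of NQO1 and 8.97% of SLC7A11, both on the opposite strand. For GCLC the share is 6.20%, mostly on the same strand. Members and lists were chosen with earlier results of these data known.

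Of the gene IDs, 23330 matched a symbol. Positions, exonic length and GC content were read from GENCODE 29 (GRCh38), which held 22807 IDs. Library totals and gene lengths giving whole reads in all 3 libraries, within 1e-05 of a read (plus the rounding of the deposited digits), were searched for. Reads were used for 21986 genes (94.0%), whose fitted length lay within 2 times the annotated one, a limit set after the values were seen. All recovered reads summed to 101% of each total.

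No count model and no test was fitted, since each group has 1 library. Differences are of log2(FPKM + 1), which understates changes of low genes, for genes averaging 1 FPKM or more. The GC trend was a cubic polynomial fitted to protein-coding genes. For the 9 members the FPKM values are given, and for all but SRXN1 the read ratios as counted and corrected. Other genes were named where the interval of the read ratio lay wholly past 1.2-fold in any comparison. Up to 5 more were named as most like GCLM among genes averaging 5 FPKM or more, with the members left out. Any further gene was picked once its value was known. The recovery of reads, the interval rule and the correction were tested on simulated data. Software was matplotlib 3.10.9, scipy 1.17.1, pandas 2.3.3 and numpy 2.4.6 under Python 3.11.15.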

Additional observations from a re-analysis of the deposited data

How the results depend on the processing

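No paired analysis was possible because each group had 1 library. Alternatives were pseudocounts of 0.1 and 5, other filters, rescaling by the median ratio, leaving out mitochondrially encoded genes, recovered reads, and 5 other forms of the GC correction. The medians over the measured members kept their sign under each. In L597R against P-Enter the median was 0.45 with a pseudocount of 5, and the corrected median was 0.47 when the median of the 200 genes nearest in GC content was subtracted. With a size threshold of 1.5-fold, 2 members passed in L597R against P-Enter. The number of members whose interval lay past a limit moved with the limit. Past 1-fold it was 5 in WT and 8 in L597R when each was set against P-Enter, and 8 in L597R set against WT. Past 1.5-fold it was 0, 2 and 0 in that order. Divided by the GC trend it was 0 in WT against P-Enter and 3 in L597R set against WT. Reads restricted to fitted lengths within 1.1 times the annotated ones, an alternative chosen after seeing the data, left the number past 1.2-fold at 1 in WT and 5 in L597R set against P-Enter, and at 5 in L597R set against WT. The corrected difference of KEAP1 changed sign in 1 of 8 alternatives in L597R against P-Enter (range -0.01 to 0.10) and in L597R against WT (-0.03 to 0.03), as did that of NQO1 in WT against P-Enter (-0.03 to 0.01) and, uncorrected, in 1 of 7 (-0.01 to 0.00). In L597R against P-Enter the corrected difference of SLC7A11 ran from 0.36 to 0.53 and that of TXNRD1 from 0.39 to 0.48. With a linear GC trend SLC7A11 was at 0.53 and NFE2L2 at 0.47, against 0.41 and 0.50 with the cubic trend. The order of these genes after the correction therefore depends on its form. Few reads, 315 to 484 a library, widened the intervals of GCLC, and SRXN1 had too few for any ratio.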
